A study of Mus musculus with 7 samples.

Results

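The 412 loci described here are short, one-directional noncoding RNAs (ncRNAs) of the mouse left atrium that lie in gene-sparse surroundings, out of 1489 ncRNA loci that the authors listed as *Tbx5*-dependent and named distal (27.7%). They were selected on 4 properties given in the list itself: no annotated gene at the locus, no mark of bidirectional transcription, a length under 500 bp, and at most 3 neighbouring gene symbols. Length, annotation, direction mark and number of neighbours are therefore given as a description only. The paper reports a larger set of *Tbx5*-dependent ncRNAs, activated and repressed, than this list holds. The list was built from ncRNA sequencing of left atria of adult male mice on a mixed background, 6 to 8 weeks old, from 3 control mice (R26CreERt2) and 4 *Tbx5* knockout mice (Tbx5 fl/fl;R26CreERt2, labelled TBX5 -/-). Both groups carried the tamoxifen-inducible Cre recombinase, expressed from the ubiquitous R26 locus, so deletion was not confined to one cell type of the atrium, and tissue was collected a week after tamoxifen. RNA was depleted of ribosomal and of polyadenylated RNA and sequenced by strand.

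The list holds 1 row per locus and no value for any mouse. The depth behind each locus is unknown, the expression difference between control and knockout could not be tested, and no direction of change is given to any locus here because the title and the column headers of the list point in opposite directions. In bulk atrial tissue, fewer cells of a type and less RNA per cell cannot be told apart. The intervals below are 95% intervals over loci, cover counting error only, and treat loci as independent, although neighbouring loci can belong to 1 transcript. Score, share without a score, downstream share and sense share were therefore also compared with loci in gene-dense surroundings using 1 value per cluster. The contrast of downstream with upstream loci was repeated in the same way. All other comparisons, among them those with longer, bidirectional and annotated loci, count every locus. Of 18 comparisons between sets of loci, 11 had an interval that left out 0, and 6 did so when the intervals were widened for 18 comparisons (Bonferroni).

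TBX5 is a T-box transcription factor that maintains the atrial gene program and cardiac rhythm, and its loss in the adult atrium causes arrhythmia. Active enhancers are transcribed into ncRNAs that are mostly short-lived and poorly polyadenylated, often from both strands at once. Transcription along 1 strand only is also seen at long noncoding RNA genes, in introns, and beyond the 3′ ends of coding genes where RNA polymerase has not yet released the template. A processed pseudogene is a copy of a messenger RNA that was written back into the genome, and most such copies carry no promoter of their own.

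In all, 12 of the 412 loci (2.91%, 95% Wilson interval 1.67% to 5.02%) overlapped the exon of a processed pseudogene in GENCODE M21, all on the pseudogene's own strand, and 9 lay wholly inside it. The list gives these loci no annotated gene. They are shown first because 4 of the 5 highest conservation scores were theirs. For 11 of them, the stretch inside the pseudogene aligned to the messenger RNA of a coding gene elsewhere in the genome, at 83.8% to 100% identity, and for 10 the aligned part lay entirely within coding sequence. The remaining locus, XLOC_046923 at *Ybx1-ps2*, shared only 12 bases with the pseudogene exon. Each of the 11 stretches had 1 best-matching gene: *Tbca* (tubulin folding), *Ube2e1* (ubiquitin conjugation), *Cnn3* (a calponin that binds actin), *Birc5* (survivin, which acts in chromosome segregation), *Cox7b* (a subunit of cytochrome c oxidase), *Txndc17* (a thioredoxin-like protein), *Ran* (nuclear transport), *Ptbp1* (splicing), *Mcm7* (the replicative helicase), *Arpc1b* (actin branching) and *Paics* (purine synthesis). For 8 of these 11 the longest uninterrupted identical stretch was at least 47 bases, the length of a read after 3 of its 50 bases had been trimmed, so a read from that stretch cannot be told apart between the pseudogene and the coding gene. The longest such stretch was 134 bases, between XLOC_021121 (*Gm5487*) and *Mcm7*, and the shortest was 16 bases, between XLOC_035489 (*Gm7343*) and *Paics*.

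The sequences below, cut from GENCODE M21 transcripts on GRCm38, are copies 95.3% to 100% identical to their coding match. The copies least like theirs, *Gm7343* (83.8%), *Gm2965* (90.6%) and *Gm38098* (91.7%), are not printed. Each printed sequence is written 5′ to 3′ along the locus strand, and capitals mark bases that differ from the aligned coding messenger RNA.
XLOC_057974, Gm48337, chr9:25811595-25811659, minus strand: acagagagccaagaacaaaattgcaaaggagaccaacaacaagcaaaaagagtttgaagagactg
XLOC_047424, Gm4374, chr6:73528858-73529040, minus strand: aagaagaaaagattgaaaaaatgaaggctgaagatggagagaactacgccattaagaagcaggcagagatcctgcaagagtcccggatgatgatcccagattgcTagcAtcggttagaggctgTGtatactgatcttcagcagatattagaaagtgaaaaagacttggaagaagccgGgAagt
XLOC_042563, Gm7478, chr5:117059320-117059392, plus strand: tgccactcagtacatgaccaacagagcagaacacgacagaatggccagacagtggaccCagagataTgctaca
XLOC_014657, Gm4900, chr13:3139352-3139551, minus strand: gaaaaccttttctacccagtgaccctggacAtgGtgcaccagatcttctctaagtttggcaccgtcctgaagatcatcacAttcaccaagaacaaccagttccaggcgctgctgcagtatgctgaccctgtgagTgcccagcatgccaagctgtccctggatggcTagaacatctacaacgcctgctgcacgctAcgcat
XLOC_024898, AC154779.1, chr17:63702339-63702423, minus strand: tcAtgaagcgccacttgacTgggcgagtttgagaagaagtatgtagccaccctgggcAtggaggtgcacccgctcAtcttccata
The 65 bases of XLOC_057974 had no capital, since they were identical to *Birc5* throughout. XLOC_047424 differed from *Tbca* at 6 of 183 positions, with 104 consecutive identical bases. The 73 bases of XLOC_042563 inside *Gm7478* differed from *Ube2e1* at 2 positions. XLOC_014657 differed from *Ptbp1* at 6 of 200 positions and XLOC_024898 from *Ran* at 4 of 85, and the longest identical stretch was 53 bases in the first and 37 in the second. XLOC_014373, the longest of the 412 loci at 499 bp, lay wholly in *Gm4815* and matched *Cnn3* over 498 aligned bases at 97.2% identity. Its linked gene in the list is *Tmem171*, not *Cnn3*. XLOC_034066 (*Gm2965*, 90.6% identical to *Txndc17*) was linked to *Ankrd50*. Loci of the same kind in gene-dense surroundings (the 314 short, unidirectional, unannotated loci with over 3 neighbours) overlapped pseudogene exons in 10 cases, or 3.18%, and the difference of -0.27 percentage points (95% Newcombe interval -3.13 to 2.28) did not leave out 0.

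**Figure D1:**
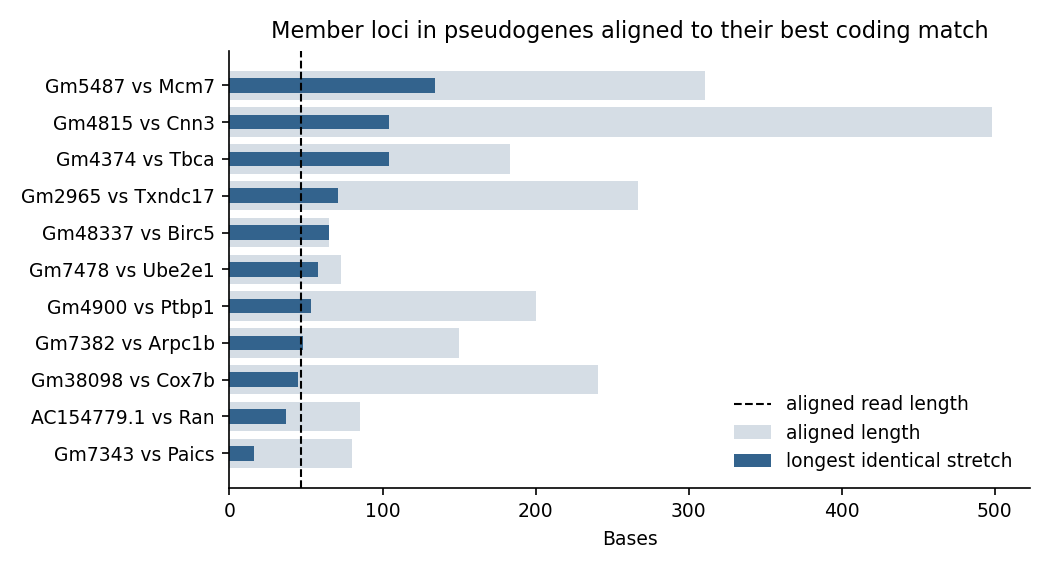
For the 11 loci in processed pseudogenes with a coding match, light bars give the aligned length and dark bars the longest identical stretch, both in bases, and the dashed line stands at 47 bases, the length of a trimmed read. In 8 loci the dark bar passes the line, up to 134 bases for *Gm5487* against *Mcm7*, and in 3 it stops short of it.

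Length was one of the properties used to choose the loci. Its median was 142.5 bp (95% interval 134 to 151), the quartiles were 95.8 and 208 bp, and 181 loci (43.9%) measured 100 to 199 bp. The minimum was 51 bp, and 14 loci had that length, among them XLOC_003413 beside *Prrx1*, XLOC_003746 beside *Esr1* and XLOC_004741, whose nearest coding gene is *Dusp6*. Only 11 loci measured 400 bp or more. Just inside the limit lay XLOC_013340 (462 bp), XLOC_036907 (497 bp) and XLOC_014373 (499 bp), and just outside it XLOC_012254 (505 bp), XLOC_019257 (507 bp) and XLOC_017362 (529 bp). Both strands were used equally, with 205 loci on plus, 205 on minus and 2 without a strand. The share on the plus strand was 49.8% (95% interval 44.95% to 54.6%).

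**Figure D2:**
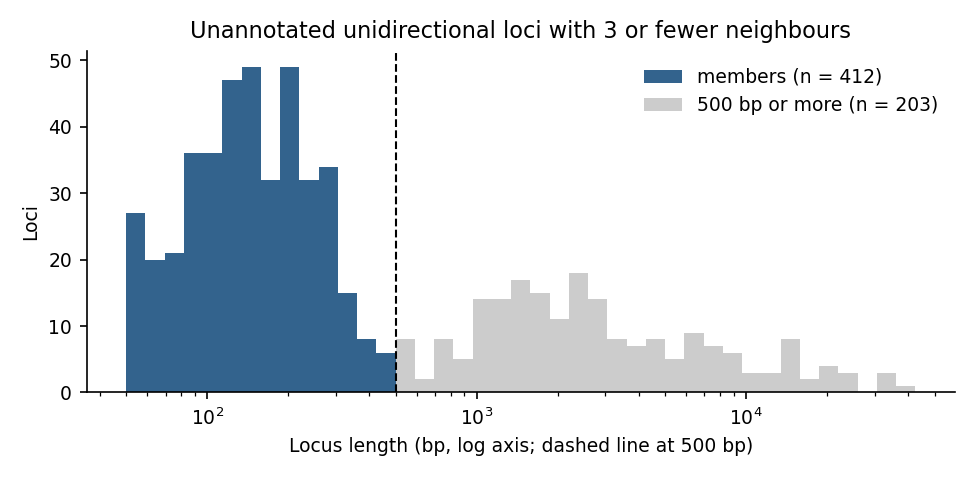
Lengths in bp on a log axis of the 412 loci (blue) and of the 203 loci of 500 bp or more that share their other 3 properties (grey), with the limit as a dashed line. The blue counts are highest between 100 and 300 bp and are already low at the limit.

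Of the 412 loci, 296 had 2 neighbour symbols, 114 had 3 and 2 had 1. Where both of 2 neighbours could be placed, they lay on opposite sides of the locus in 282 of 292 cases. The 2 coding genes that flank a locus were a median of 373 kb apart (95% interval 295 to 418, n = 382), and 59 loci lay in gene deserts of over 1 Mb. The lower quartile was 135 kb and the smallest gap 7.42 kb, so few neighbour symbols did not always mean a wide gap. The corresponding median in gene-dense surroundings was 45.1 kb, a contrast that follows from the choice by number of neighbours. Chromosome 13 held the most loci (54), followed by chromosomes 8 (43), 10 (40) and 3 (36), and chromosome X held 7. In GENCODE M21, 343 loci (83.3%, 79.3% to 86.5%) touched no annotated gene of any type, 25 (6.07%) lay in introns of coding genes, and 16 (3.88%) touched an exon, the 12 pseudogene loci among them. The rest lay in introns of pseudogenes (2 sense, 1 antisense) or of genes neither coding nor pseudogene (21 sense, 4 antisense). Of the 25 loci in coding introns, 22 were on the strand of the host gene. Among the loci in exons, XLOC_051651 (189 bp) lay wholly in an untranslated region of the coding gene *Ntrk3*, in sense.

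Relative to the nearest coding gene, the loci were mostly downstream and in its own direction. Of the 410 loci with a strand, 307 (74.9%, 70.5% to 78.8%) lay beyond the 3′ end of the nearest coding gene, 78 (19.02%) lay before its 5′ end and 25 lay inside it. The split by side is fixed in part by the list. The paper kept only ncRNAs at a distance from known start sites of coding genes, and names no such limit for 3′ ends. The same strand as the nearest coding gene was used by 322 (78.5%, 74.3% to 82.2%). Downstream, 252 of 307 loci were in sense (82.1%), and upstream 47 of 78 (60.3%). The difference of 21.8 percentage points (95% Newcombe interval 10.7 to 33.6) left out 0, also at the widened level, and with 1 locus per cluster it was 23.4 points (10.98 to 36.1).

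The sense share was highest next to the gene end. Within 10 kb downstream, 84 of 89 loci were in sense (94.4%, 87.5% to 97.6%). Between 10 and 50 kb it was 74 of 92 (80.4%, 71.2% to 87.3%), between 50 and 100 kb 26 of 37 (70.3%, 54.2% to 82.5%), and beyond 100 kb 68 of 89 (76.4%, 66.6% to 84.0%). Upstream, the share ranged from 52.9% to 68.2% over the same 4 bins, in each of which there were at most 22 loci. The median distance to the nearest coding gene was 28.4 kb (20.7 to 39.4), and 137 loci (33.3%) were within 10 kb.

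Among gene-dense loci, 209 of 312 (67.0%) were downstream of the nearest coding gene and 222 of 312 (71.2%) were in sense. Both shares were lower than in gene-sparse surroundings, by differences of 7.89 points (1.23 to 14.6) and 7.38 points (1.03 to 13.8), neither of which left out 0 at the widened level. With 1 locus per cluster the differences were 5.60 points (-2.09 to 13.2) and 5.70 points (-1.56 to 12.9), so neither is separated from 0 by that count. On the downstream side alone the sense shares were 82.1% and 77.5% (difference 4.57 points, -2.37 to 11.8).

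**Figure D3:**
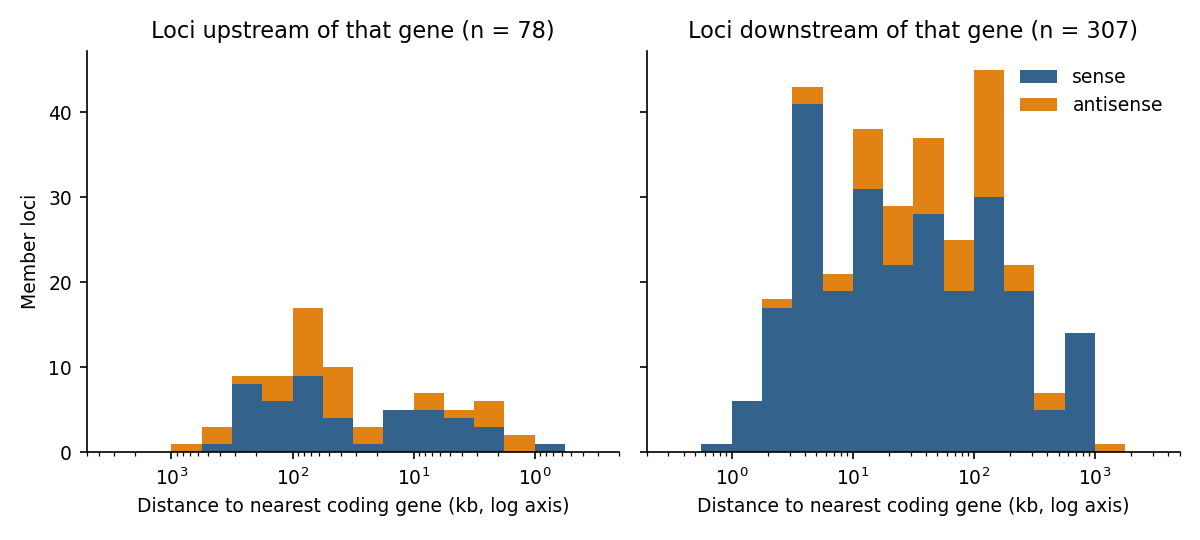
Number of loci by distance in kb (log axis) to the nearest coding gene, for the 78 loci upstream of it (left, axis reversed so that the gene is in the middle) and the 307 downstream of it (right), with sense loci in blue and antisense loci in orange. Sense loci make up 82.1% of the right panel and 60.3% of the left, and within 10 kb downstream only 5 antisense loci appear.

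Many of the loci came in strings. At a gap of at most 10 kb, the 412 loci fell into 292 clusters, 244 of them single loci. Another listed locus of any kind lay within 10 kb of 184 loci (44.7%, 39.9% to 49.5%), and in all 184 cases the nearest one was on the same strand. That count is fixed in part by the choice, since a locus with a close partner on the other strand can carry the bidirectional mark. The nearest partner was another of the 412 for 162 loci, an unannotated unidirectional locus of 500 bp or more for 19 and an annotated locus for 3. In all, 55 loci (13.3%) lay within 10 kb of a same-strand locus of 500 bp or more. Loci with a partner within 10 kb had a median length of 169.5 bp and those without one 127.5 bp.

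There were 12 runs of 4 or more loci on 1 strand, which together held 91 of the 412 loci (22.1%). The runs spanned 3.25 to 43.3 kb, and the loci in them covered 3.02% to 18.04% of the span. Of the 12 runs, 11 were in sense to the nearest coding gene and 10 lay downstream of it, with 6 runs on each strand. The largest lay downstream of *Edn1*, which encodes the vasoconstrictor and hypertrophic peptide endothelin 1, toward *Phactr1* on chromosome 13. It held 22 loci of 66 to 456 bp over 43.3 kb on the plus strand, starting 92.7 kb beyond the end of *Edn1*, and 4 longer listed loci lay in the same span. The second held 14 minus-strand loci over 37.7 kb on chromosome 8, of which the closest lay 16.5 kb and the farthest 54.1 kb beyond *Nrg1*, the gene of the growth factor neuregulin 1, which signals from endothelium and endocardium to cardiomyocytes. The third held 12 loci over 24.2 kb beside *Inhba*, which encodes the activin A subunit. It was the one antisense run, 154 kb downstream of *Inhba*. The list links none of these 48 loci to a gene, in the sense of a link given below.

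The other runs were shorter. In one, 7 loci spanned 14.4 kb between *Kcnj2* and *Sox9*, and 5 loci each lay between *Marcks* and *Rfpl4b*, 3.85 kb downstream of *Btg1* toward *Dcn*, between *Ptbp2* and *Rwdd3*, and inside *Nxpe4*. The run at *Ptbp2* was the one that lay upstream of its nearest gene, ending 0.634 kb before it. Runs of 4 lay between *Sash1* and *Gm9930* (292 kb downstream of *Samd5*), downstream of *Fam198b*, 13.2 kb downstream of *Nfib*, and 4.20 kb downstream of *Sh3rf1*. The run by *Sash1* is part of a larger set. With *Sash1* and *Gm9930* as neighbours there were 15 of the loci and 99 listed loci of any kind, against 26 listed loci for *Edn1* and *Phactr1*. Of the 12 runs, 2 had a linked gene, *Kcnj2* and *Mpdz*. Median conservation scores of the runs ranged from 0.00472 (*Fam198b* to *Gria2*) to 0.106 (*Sh3rf1* to *Cbr4*). Without the 91 loci in runs, the sense share of the rest was 76.2% and the share on the plus strand was 49.2%.

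**Figure D4:**
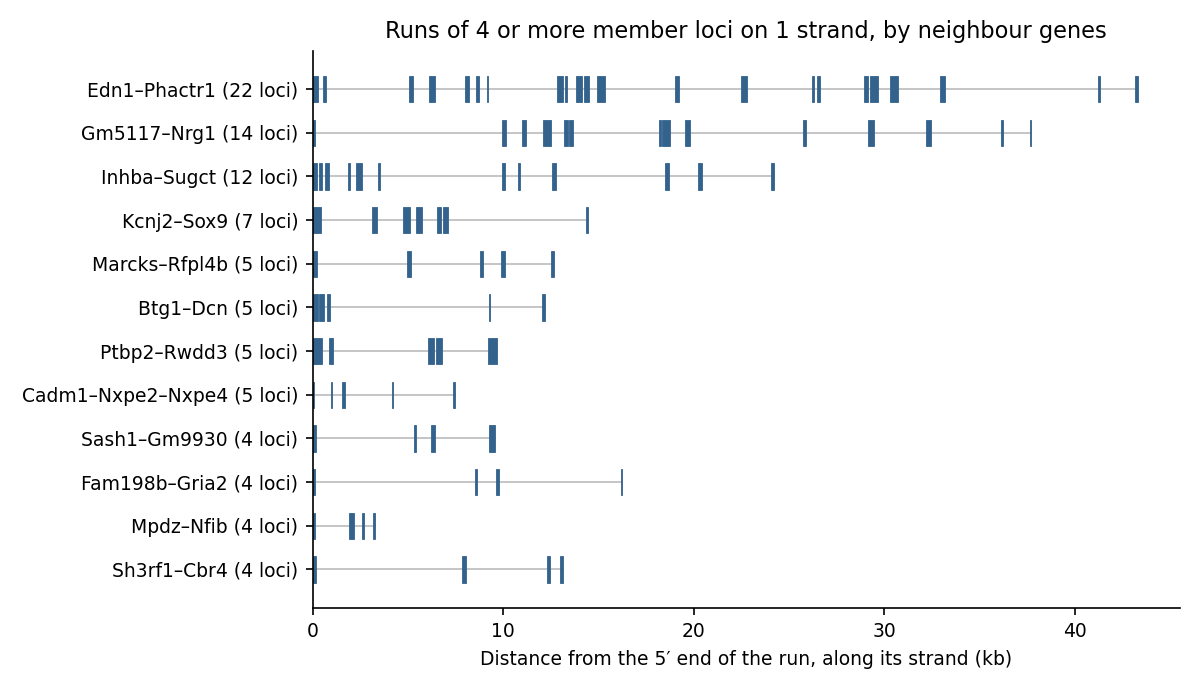
The 12 runs of 4 or more loci, named by their neighbour genes, with each locus drawn to scale as a bar at its distance in kb from the 5′ end of the run. The *Edn1* run reaches 43.3 kb with 22 loci, while the *Mpdz* to *Nfib* run holds 4 loci in 3.25 kb.

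The list links a locus to one or more coding genes whose expression also depended on *Tbx5*. Links were read from a single column, whose header marks these genes as nearest and 'dn'. A locus without a link can still have a *Tbx5*-dependent gene nearby, since the paper placed its ncRNA set within 2000 kb of such genes. Such a link was present for 85 of the 412 loci (20.6%, 17.0% to 24.8%), in 88 pairs with 63 genes, of which 50 genes had 1 locus each. The share was 25.8% of the whole list and 36.3% of gene-dense loci, and 18.2%, 27.2% and 28.9% of loci with 2, 3 and 4 neighbour symbols, given as a description because the loci were chosen by their number of neighbours. The linked gene lay a median of 145 kb away (93.7 to 183), 14 of 88 pairs were within 10 kb, 86 were within 2000 kb, and the farthest was 3532 kb away. In 39 of the 88 pairs the linked gene was the closer or closest neighbour (44.3%, 34.4% to 54.7%). The locus lay upstream of the linked gene in 42 pairs, downstream in 42 and inside it in 4, and 57 of 86 pairs with a strand were in sense (66.3%, 55.8% to 75.4%). By side, 27 of 41 upstream pairs and 26 of 41 downstream pairs with a strand were in sense.

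Among the loci described here, *Kcnj2* had the most linked ones, 8 of the 11 counted for it in the whole list. It encodes Kir2.1, the inward rectifier potassium channel that stabilises the resting potential of cardiomyocytes. These 8 loci were all on the plus strand, in sense, 700 to 728 kb downstream in the gene desert of 1705 kb before the next coding gene. They measured 84 to 454 bp. The loci and their conservation scores, explained below, were XLOC_008510 (0.0183), XLOC_008512 (0.00525), XLOC_008513 (0.311), XLOC_008514 (0.0256), XLOC_008515 (0.166), XLOC_008516 (0.0857), XLOC_008518 (0.0150) and XLOC_008522 (0.0811), so 2 of the 8 exceeded 0.1. *Ppargc1a*, the coactivator that drives mitochondrial biogenesis, had 4 loci of 51 to 136 bp, all upstream and in sense, XLOC_043502, XLOC_043503, XLOC_043505 and XLOC_043509, at 137, 205, 222 and 310 kb from its 5′ end. The farthest, XLOC_043509, lies wholly in an exon of *Gm42616*, a transcript of uncertain status in M21. Its 51 bases are the whole locus and are shown as the shortest kind of member.
XLOC_043509, Gm42616, chr5:51878062-51878112, minus strand: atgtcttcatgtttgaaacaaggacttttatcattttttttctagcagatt
It is 27.5% G or C, had no match among coding transcripts, and scored 0.00849.

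*Mpdz*, a scaffold protein of cell junctions, had 4 loci 831 to 834 kb upstream, which lay 13.2 kb downstream of *Nfib* and in sense to both genes. The 3 loci of *Pde1c*, a calcium- and calmodulin-dependent phosphodiesterase of smooth muscle and heart, were inside the gene and in sense, and 1 of them, XLOC_047155, scored 0.689. The 3 loci of *Rdh14*, a retinol dehydrogenase, were 78.1 to 145 kb upstream and antisense. The 5 genes with the most loci thus had them on 1 strand each, with *Rdh14* as the one with antisense loci.

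Neighbour genes were next read against lists of cardiac genes. These lists, and those of other cell types below, were chosen with earlier results of these data known. Counts against them are therefore a description, and no enrichment was tested. For scale, 515 of 21924 coding genes in M21 (2.35%) neighboured the loci, and 63 of these 515 (12.2%) were linked to one. Of 25 calcium-handling genes, 1 neighboured the loci, *Ryr2*, whose product releases calcium from the sarcoplasmic reticulum. Its linked locus, XLOC_014719, was 117 bp long, in sense, 41.1 kb downstream of *Ryr2*, and scored 0.0488. Of 24 ion channel and conduction genes, 2 were neighbours, *Kcnj2* (linked) and *Kcna4* (not linked, nearest locus 387 kb away). Of 29 cardiac transcription factors, 5 were neighbours. *Hey1*, a Notch target, was linked to XLOC_035453 (207 bp, in sense, score 0.0985) 129 kb upstream. Not linked were *Irx5* (nearest locus inside it), *Prrx1* (67.2 kb away), *Myocd* (414 kb) and *Hand2* (724 kb). Of 16 genes of energy metabolism, 2 were neighbours, *Ppargc1a* (linked) and the nuclear receptor *Esrrg* (not linked). Of 11 natriuretic and stress genes, 3 were neighbours. Among them *Bcl2l11*, a mediator of apoptosis, was linked to XLOC_032958, antisense and 20.7 kb downstream. That locus lay in an intron, on its own strand, of a gene that is neither coding nor a pseudogene. It is 1 of 27 loci counted for *Bcl2l11* in the whole list. *Edn1* had 22 loci and *Nrg1* 17, none of them linked to that gene. Of the 17 loci beside *Nrg1*, 16 had no link and XLOC_053080, antisense in an *Nrg1* intron, was linked to *Wrn*. No gene of the 23 of sarcomere and muscle neighboured the loci, and of 13 genes associated with atrial fibrillation only *Prrx1* did.

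Genes of other cell types were also among the neighbours. Of 25 fibroblast and matrix genes, 7 neighboured the loci. Their nearest loci lay at 4.88 kb (*Col5a1*), 67.9 kb (*Tgfb2*), 91.9 kb (*Thbs2*), 152 kb (*Ccn2*), 154 kb (*Inhba*), 261 kb (*Tcf21*) and 841 kb (*Dcn*). Of 11 endothelial genes, 3 were neighbours, at 7.92 kb (*Flt1*), 28.7 kb (*Emcn*) and 56.5 kb (*Erg*). None of these 10 genes was linked, although loci beside them could be linked to another gene, as XLOC_028877, 4.88 kb downstream of *Col5a1*, was to *Olfm1*. No gene of the smooth muscle, immune, Schwann cell, adipocyte or cell cycle lists was a neighbour. Which cells of the atrium transcribed a locus was not tested. Among the loci without any link, the 8 closest to a listed gene were XLOC_053736 (187 bp, in an *Irx5* intron, sense), XLOC_043004 (135 bp, 7.92 kb downstream of *Flt1*, antisense) and 6 loci of the *Nrg1* run. Those 6 were XLOC_054691 at 16.5 kb and XLOC_054686, XLOC_054685, XLOC_054684, XLOC_054683 and XLOC_054682 at 26.5 to 29.97 kb downstream, all in sense.

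Conservation was low. The list gives each locus the mean phastCons score over 30 vertebrate species, an estimate from 0 to 1 that a base belongs to a conserved element. The median over the 352 scored loci was 0.0393 (95% interval 0.0305 to 0.0492), and 301 of them (85.5%) scored under 0.2. Unidirectional, unannotated loci of 500 bp or more, with any number of neighbours (n = 253), had a median of 0.0960 (difference -0.0567, -0.0695 to -0.0438 by the Price-Bonett interval), bidirectional loci 0.0755 (difference -0.0362, -0.0537 to -0.0186) and annotated loci 0.116 (difference -0.0767, -0.101 to -0.0528). These 3 differences left out 0 at the widened level too. None was repeated with 1 value per cluster or among loci of like length. Scores were under 0.2 in 86.6% of loci of 500 bp or more, 88.2% of bidirectional loci and 68.9% of annotated loci. Scores over 0.5 made up 4.83% of the 352 loci, and 4.35%, 4.08% and 15% of those sets in turn. Apart from annotated loci, both shares were thus close to those of the 352 loci. Against gene-dense loci (0.0659, n = 234) the difference was -0.0265 (-0.0483 to -0.00473), which left out 0 at 95% but not at the widened level. With 1 value per cluster it was -0.0241 (-0.0464 to -0.00171), and among loci of 100 to 199 bp alone it was -0.0150 (-0.0387 to 0.00879).

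No score was given for 60 of the 412 loci (14.6%, 11.5% to 18.3%), against 80 of 314 gene-dense loci (25.5%). The difference was -10.9 points (-16.9 to -5.07), left out 0 at the widened level, and was -11.003 points (-17.6 to -4.39) with 1 locus per cluster. Of the 264 unidirectional, unannotated loci of 500 bp or more, 4.17% had no score. Counted as a score of 0, the missing values moved the median of the loci to 0.0275 and the difference from gene-dense loci to -0.00343 (-0.0170 to 0.0101), which did not leave out 0.

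Within the 412 loci, those with a linked gene had a median of 0.0359 and those without 0.0415 (difference -0.00558, -0.0272 to 0.0161). Loci with a listed partner within 10 kb scored 0.0441 and those alone 0.0328 (difference 0.0113, -0.00610 to 0.0287). Sense loci scored 0.0359 and antisense loci 0.0641 (difference -0.0282, -0.0514 to -0.00493), a difference that did not leave out 0 at the widened level. Loci within 10 kb downstream of a coding gene (0.0391) and loci over 100 kb from any (0.0357) differed by 0.00337 (-0.0228 to 0.0296).

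At the upper end, 17 of the 352 scored loci exceeded 0.5, and 7 of these overlapped a pseudogene exon, against 5 of the 335 others. The 4 highest were XLOC_047424 (0.934), XLOC_042563 (0.898), XLOC_014373 (0.896) and XLOC_057974 (0.872), printed or described above with their matches to *Tbca*, *Ube2e1*, *Cnn3* and *Birc5*. The fifth, XLOC_044839 (0.872), was 121 bp long and intergenic, 22.5 kb downstream of *Mdfic* in sense. Next among loci outside pseudogenes came XLOC_056948 (0.767), 89.3 kb downstream of *Vps13c* and linked to both *Vps13c* and *Rora*, a nuclear receptor of the circadian clock. After it came XLOC_032632 (0.750), with *Mettl15* as nearest coding gene at 182 kb and *Kcna4* as a neighbour 1612 kb away. XLOC_024892 (0.691), linked to *Nudt12*, followed. Scores of pseudogene loci were not all high, since XLOC_018481 and XLOC_035489 scored 0. XLOC_046923 also scored 0, but only 12 of its 240 bp lay in the pseudogene exon. Whether a score at such a copy describes the copy or its coding gene was not tested.

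**Figure D5:**
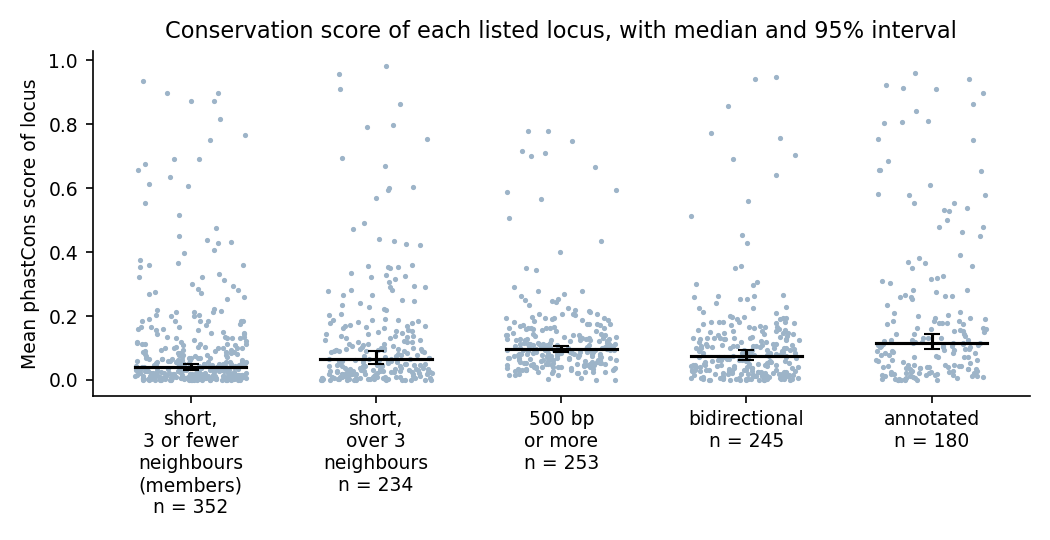
Mean phastCons score of each scored locus (points), by set of loci, with the median as a line and its 95% interval as a bar. The 352 scored loci in gene-sparse surroundings have the lowest median, 0.0393, with 17 loci above 0.5.

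Promoters of the neighbour genes were searched for the T-box core AGGTGT on both strands, from 250 bases before to 50 after the RefSeq start (GRCm38.p6). A promoter sequence was matched for 44 of the 63 linked genes. The core was in 4 of these 44 (9.09%, 3.59% to 21.2%) and in 51 of 318 promoters of other neighbours (16.04%, 12.4% to 20.5%), beside 15.7% of 27025 genes with a promoter sequence. The longer site AGGTGTGA, which contains the core, was in 0 of 44, 2 of 318 and 1.48% of all. A match of letters is a description of these windows only.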

How the data were processed

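Left atrial RNA of 3 control and 4 *Tbx5* knockout mice was measured as directional, single-end 50-base ncRNA-seq libraries, and the first 3 bases of each read were trimmed. Per the labels and the methods of the study, reads were aligned to mm10 with TopHat2 (2.0.10 and 2.0.13 are named), transcripts were assembled with Cufflinks, reads were counted with featureCounts and differential loci were found with DESeq. The authors kept loci they named distal, lifted them to mm9 and deposited 1 list of 1489 loci with 13 columns, in 2 files of identical content. The only measurement used is the mean phastCons score, a fraction from 0 to 1 that the authors deposited for each locus. No column holds a value for a single sample.

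Coordinates were compared with GENCODE M21 (GRCm38, the same assembly as mm10), in which 538 of 541 neighbour and linked symbols were found. The side of a locus was set by the strand of the gene, and clusters joined loci at most 10 kb apart. Shares have 95% Wilson intervals, medians order-statistic intervals, and differences Newcombe or Price-Bonett intervals (SciPy 1.17.1). Transcript stretches were aligned to M21 coding transcripts with blastn (BLAST+ 2.17.0, plus strand, e-value limit 1e-05, word size 11). The interval, cluster and gene-side code was tested on simulated data.

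The loci and gene lists were chosen with earlier results of these data known. The text names every locus linked to a listed gene, the 8 unlinked loci closest to one, the 5 highest scores, the 3 shortest and 3 longest loci, those beside the 500 bp limit, runs of 4 or more, and the 5 genes with most linked loci. Base composition, repeats and T-box motifs of the loci, planned as comparisons, were not analysed here, because they need a genome sequence.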

Additional observations from a re-analysis of the deposited data

How the results depend on the processing

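Of 66 alternative results over 13 quantities, 56 kept their direction and their side of the threshold, or stayed within the interval or within 1.5 times the count. Other settings moved 5 values. Another listed locus lay within 1 kb of 21.4% of loci and within 50 kb of 59.0%. The median phastCons score was 0.0275 with missing scores as 0. The sense share was 88.9% where the nearest coding gene was within 10 kb, and 93.7% of loci lay outside genes when only coding genes counted. Among alternatives chosen after seeing the data, 5 differences from gene-dense loci no longer left out 0. The phastCons difference was -0.0150 within 100 to 199 bp and -0.00343 with missing scores as 0. With at most 4 neighbour symbols it was -0.0508, larger than the -0.0265 at the chosen limit. The downstream share differed by 5.60 points with 1 locus per cluster and by 6.03 points within 100 kb, and the sense share by 5.70 points with 1 locus per cluster. Within 100 kb the sense share differed by 8.55 points (1.73 to 15.2), which still left out 0 at 95%. The cause was not tested. Counting repeated intervals once gave the same value for each of the 13 quantities, and 0 repeated intervals lay among the loci. Those 13 results are part of the 56 and were no check. Leaving out chromosome X changed no call. The number of loci was 298 with at most 2 neighbours, 502 with at most 4, 377 under 300 bp and 423 under 700 bp. The planned comparisons of base composition, repeat share and T-box motif share, with their alternatives, were not run. No paired analysis was possible because the list holds no sample values.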
